A study of Homo sapiens with 6 samples.

Results

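Matrix metalloproteinases and their tissue inhibitors were examined in BxPC-3, an established epithelial cell line from a human pancreatic cancer. The set was a fixed list of 10 genes out of the 26255 gene symbols measured: the metalloproteinase genes MMP28, MMP1, MMP7, MMP9, MMP10, MMP13 and MMP14 and the inhibitor genes TIMP1, TIMP2 and TIMP3. MMP28 was chosen by its low FPKM in the miR-4711-5p libraries against the controls in these same data, and the other genes by family. The MMP28 values are therefore given as a description without a test, and the gene is left out of every count of calls and of separate libraries. It is included where genes are counted by level or by seed match. RNA was sequenced from 3 groups of 2 libraries each, 36 h after the start of treatment. The groups were parent cells without treatment, cells transfected with a negative control that the labels call NC-1, and cells transfected with the microRNA miR-4711-5p. No group carries a genetic change made for the study, and all 6 libraries come from the same cell line. The methods describe a control duplex named NC and a second control named NC2, and do not say which of them NC-1 is. Nothing in the labels says that the 2 libraries of a group came from separate cultures, so p-values measure only the spread between these libraries, which may be technical.

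Matrix metalloproteinases are zinc-dependent enzymes that cut collagens, laminins, other matrix proteins and many cell surface proteins. They are made as inactive precursors, and cleavage of the propeptide, for some members by furin-like convertases, makes them active. TIMPs bind the active site of these enzymes and block it. Pancreatic cancer is known for a dense collagen-rich stroma, in which both tumour cells and fibroblasts make metalloproteinases.

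Values are FPKM, fragments scaled to transcript length and to library size, which allows levels of different genes to be compared per length. They summed to between 493145 and 550772 per library, with 16597 to 17305 symbols above 0. The number of reads cannot be read back from FPKM, and depth in reads is unknown. From the steps between the lowest values, depth relative to the first parent library was 0.874 for the second parent library, 0.751 and 0.857 for NC-1, and 1.08 and 1.21 for miR-4711-5p. All 6 epithelial markers examined (KRT7, KRT8, KRT18, KRT19, EPCAM and CLDN4) were above 1 FPKM in every library, at 91.6 to 1842 FPKM. Of 8 fibroblast markers only COL1A1 was above 1 FPKM in every library, with no value of the list over 2.35 FPKM, and all 4 leukocyte markers stayed at or under 0.139 FPKM. The summed fibroblast markers were 1.39 to 1.94 FPKM in parent, 2.16 to 2.59 FPKM in NC-1 and 2.17 to 2.36 FPKM in miR-4711-5p libraries. Their part in the differences described here was not tested.

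The sequences below show the microRNA and its seed matches in these genes, because a microRNA pairs through its seed with 3′ UTRs of the mRNAs it lowers. The mature miR-4711-5p of RefSeq (GRCh38.p14, chr1:59733269-59733291, minus strand) has 23 bases. Capitals mark the seed, bases 2 to 8.
miR-4711-5p: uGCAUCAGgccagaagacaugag
On an mRNA, written as DNA, the seed match is CTGATGC (7mer-m8), TGATGCA (7mer-A1) or CTGATGCA (8mer), read on the sense strand only. The longest annotated 3′ UTR (GENCODE v44 lifted to GRCh37, the same build as hg19) held at least 1 such match in 3 of the 10 genes, namely MMP28, TIMP2 and TIMP3. Of 10593 tested genes with an annotated 3′ UTR, 18.5% held one and 3.62% held an 8mer, so with 10 genes nothing particular to the list can be read from this share. In the next lines capitals mark the match, and all are written 5′ to 3′ along the mRNA.
MMP28 8mer: tgggagggagaCTGATGCAggcctaccagt
TIMP2 7mer-m8: tgcgcatgtctCTGATGCtttgtatcatt
TIMP3 7mer-A1: agagtcggagaTGATGCAgcacacacaca
TIMP3 7mer-m8: gtgagcagaagCTGATGCcagcatgtcac

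The MMP28 match lies at chr17:34092960-34092967 on the minus strand, 552 bases into a 3′ UTR of 635 nt. It is in 1 of the 4 coding transcripts of MMP28 with an annotated 3′ UTR. The TIMP2 match lies at chr17:76849120-76849126 on the minus strand, at position 2623 of 2690 nt, in 4 of 5 coding transcripts. The TIMP3 matches lie at chr22:33255985-33255991 and chr22:33257384-33257390 on the plus strand, at positions 621 and 2020 of 3664 nt. The 3′ UTRs of MMP1 (493 nt), MMP7 (268 nt), MMP9 (193 nt), MMP10 (291 nt), MMP13 (1271 nt), MMP14 (1719 nt) and TIMP1 (609 nt) held none of these letters. In coding sequence, MMP14 held an 8mer at chr14:23310830-23310837, MMP1 held a 7mer-A1 and MMP10 held 2, where 24.2% of 10557 tested genes held a match. A match is a description of sequence, and pairing was not measured.

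**Figure D1:**
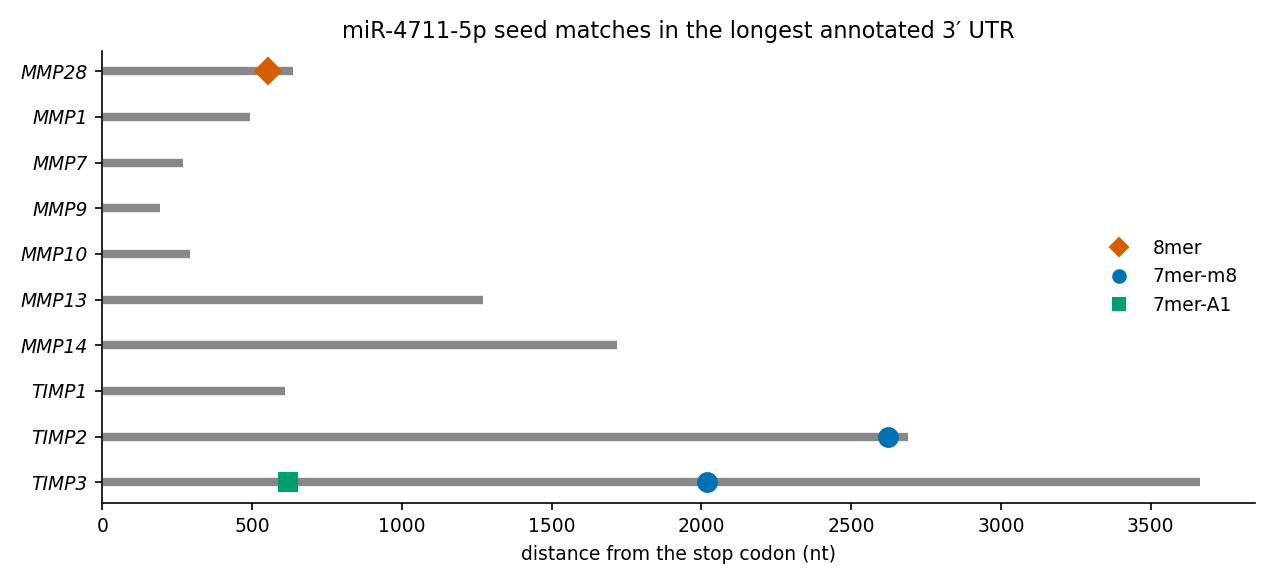
Seed matches of miR-4711-5p in each gene's longest 3′ UTR. The x axis is the distance from the stop codon in nucleotides, grey bars are the 3′ UTRs and symbols are the 3 kinds of match; MMP28 has an 8mer near the end of a 635 nt 3′ UTR, TIMP2 has 1 match, TIMP3 has 2 and the other 7 genes have none.

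The MMP and TIMP genes differed widely in RNA level, and many were close to 0. Of 27 MMP and TIMP genes examined, 12 averaged at least 1 FPKM across all libraries. These were the 10 genes of the list with MMP15 and MMP19. The other 15 did not exceed 1.05 FPKM in any library. MMP8, MMP21, MMP26 and MMP27 were listed at 0 in all 6 libraries. MMP2 and MMP3, a gelatinase and a stromelysin that fibroblasts make in quantity, did not exceed 0.0955 and 0.388 FPKM.

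By mean level in parent cells TIMP1 stood first, at 438 FPKM, followed by MMP1 at 317 FPKM and MMP14 at 305 FPKM. The difference between MMP1 and MMP14 was smaller than the SD of the MMP14 parent libraries (15.3 FPKM), so their order is not resolved. MMP28 stood at place 4 of the 12, at 61.6 FPKM, above TIMP3 at 34.3, MMP15 at 27.0, TIMP2 at 22.1 and MMP9 at 8.81 FPKM. MMP7 and MMP13 followed at 2.99 and 2.88 FPKM, with overlapping libraries. MMP10 at 1.195 FPKM and MMP19 at 1.13 FPKM were last. With miR-4711-5p, MMP28 stood at place 6, and its libraries lay close to those of MMP9 and TIMP2. TIMP1 kept place 1. MMP14 stood above MMP1 with miR-4711-5p and in NC-1 alike.

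**Figure D2:**
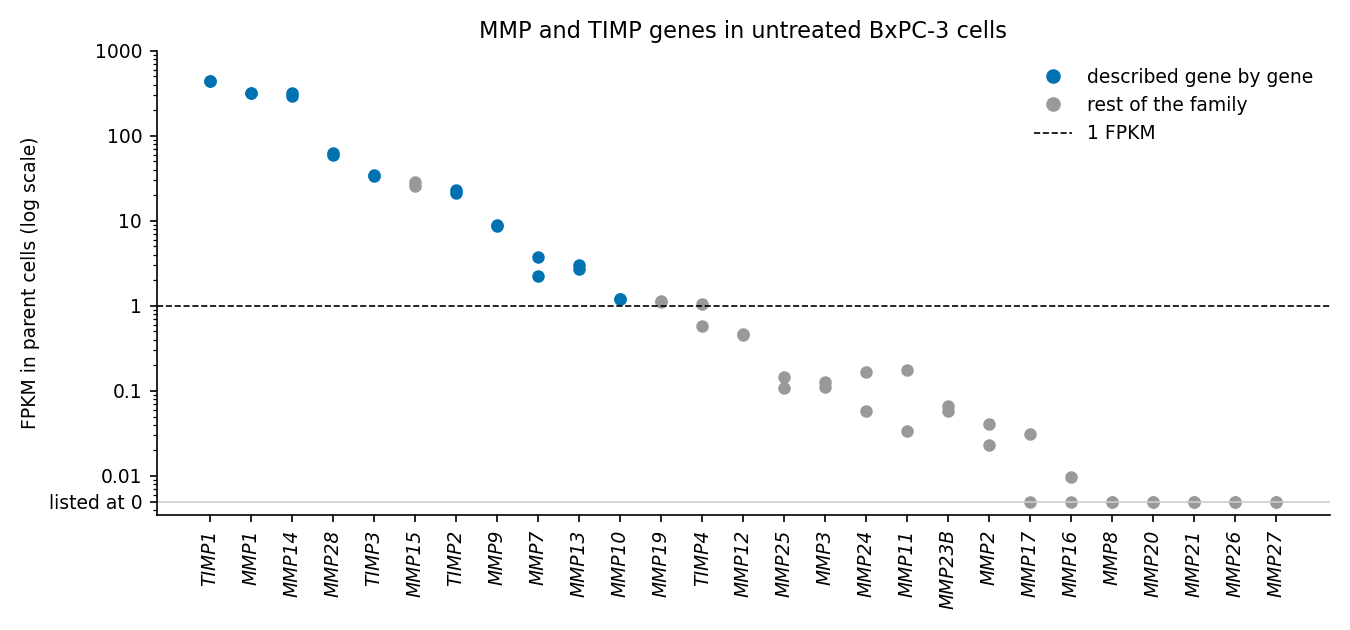
Levels of 27 MMP and TIMP genes in untreated BxPC-3 cells. Points are the 2 parent libraries in FPKM on a log axis, genes are ordered by their mean, blue marks the 10 genes described gene by gene and the dashed line is 1 FPKM; TIMP1, MMP1 and MMP14 lie far above the rest and MMP28 is at place 4.

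MMP28 encodes epilysin, a secreted metalloproteinase known from skin and other epithelia (ENSG00000271447, chr17:34083268-34122711, minus strand). Its level was 63.4 and 59.7 FPKM in the parent libraries, 66.7 and 62.5 FPKM in the NC-1 libraries, and 14.1 and 15.8 FPKM in the miR-4711-5p libraries. Both miR-4711-5p libraries lay far below all 4 control libraries, and the parent and NC-1 libraries overlapped. The mean was 61.6 ± 2.64 FPKM (SD, n = 2) in parent, 64.6 ± 2.97 in NC-1 and 14.9 ± 1.205 with miR-4711-5p. The mean with miR-4711-5p was 4.13-fold lower than in parent and 4.33-fold lower than in NC-1, which left 24.2% and 23.1% of the control levels. On the log2(FPKM + 1) scale these differences were −1.98 and −2.04 (SE 0.07 each), and NC-1 differed from parent by 0.07. Among 6606 genes over 10 FPKM in parent cells, ordered by this decrease against parent, MMP28 stood at place 7, TIMP3 at 171, MMP1 at 188, TIMP2 at 245, TIMP1 at 1553 and MMP14 at 3881. MMP28 was chosen for its fall in these same data, so its place is a description only.

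The 5 tested genes whose profile over the 6 libraries was most like that of MMP28 were CDH1, PSMB6, GTF3A, CHST14 and ADA. Likeness was the root mean square difference of centred log2(FPKM + 1) values, which was 0.0918 for CDH1, 0.114 for PSMB6, 0.139 for GTF3A, 0.144 for CHST14 and 0.152 for ADA. CDH1, which encodes E-cadherin, had mean levels of 115 FPKM in parent, 110 FPKM in NC-1 and 29.6 FPKM with miR-4711-5p. PSMB6, a catalytic proteasome subunit, had 177, 160 and 38.5 FPKM in the same order. These genes were chosen for their pattern, so the likeness is a description. All 5 held a seed match in the longest 3′ UTR, beside 18.5% of all tested genes with an annotated 3′ UTR. The 5 were chosen for the same fall as MMP28, so nothing about MMP28 can be read from this share. A part of these matches in any fall was not tested. In the gene lists described further on, a match was held by 2 of 7 tested ADAM genes, 1 of 3 ADAMTS genes, 1 of 9 activators, inhibitors and partners, 0 of 9 matrix genes and 0 of the 2 other MMP genes. Of genes named from these lists that fell against both controls, PCSK7 held a 7mer-m8, and LRP1, ADAM15, ADAMTS12, PCSK6, HSPG2, LAMA5 and LAMC1 held none. ADAM28, which was higher against both, held an 8mer, and ADAM19, LCN2 and FN1, also higher against both, held none.

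**Figure D3:**
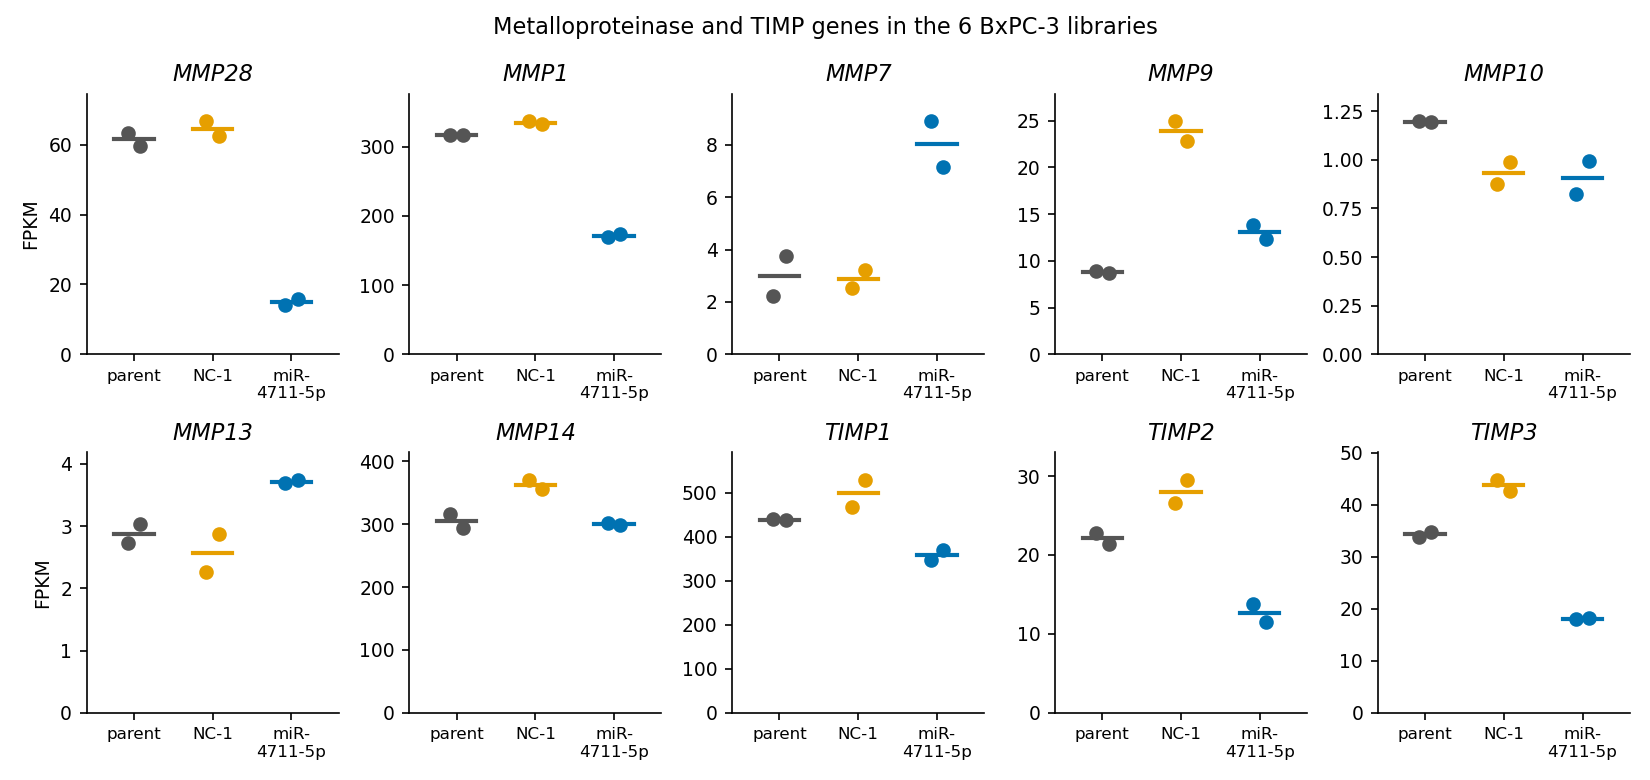
Levels of the 10 genes in the 6 libraries. Each panel plots FPKM, from 0, for 1 gene, points are libraries and lines are group means of n = 2; MMP28, MMP1, TIMP1, TIMP2 and TIMP3 are lower in both miR-4711-5p libraries than in all 4 control libraries, MMP7 and MMP13 are higher, and MMP9 lies between parent and NC-1.

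The other 9 genes were tested with limma over the 12040 genes that averaged at least 1 FPKM, with Benjamini-Hochberg adjustment at 0.05. Fold values are ratios of mean FPKM, and log2 differences are on the log2(FPKM + 1) scale, which understates changes of genes near 1 FPKM. Against parent, 2 of the 9 genes were higher with miR-4711-5p (MMP7 and MMP9), 4 were lower (MMP1, TIMP1, TIMP2 and TIMP3), and 3 were not called. In that comparison limma called 43.4% of all genes tested, 18.7% as higher and 24.7% as lower. Against NC-1, 2 genes were higher (MMP7 and MMP13), 6 were lower (MMP1, MMP9, MMP14, TIMP1, TIMP2 and TIMP3) and MMP10 was not called. Here limma called 39.6% of all genes, 18.4% as higher and 21.2% as lower. NC-1 against parent gave 4 genes higher (MMP9, MMP14, TIMP2 and TIMP3), 0 lower and 5 not called, where 12.1% of all genes were called higher and 15.1% lower, 27.2% in either direction. In this last comparison 0 of the 9 genes were lower at an unadjusted limma p under 0.05 as well, and 5 were higher. By libraries alone, both miR-4711-5p libraries lay below both parent libraries in 5 of the 9 genes and above them in 3, where 39.3% and 35% of all genes did. Against NC-1 the counts were 6 below and 2 above, where 36.2% of all genes lay each way. Both NC-1 libraries lay below both parent libraries in 1 gene and above them in 6, where 34.2% and 31.3% of all genes did. The median log2 difference of the 9 genes was −0.20, −0.47 and 0.18 in the 3 comparisons, in the order given, beside −0.01, 0.00 and −0.01 for all genes tested. The 3 comparisons share libraries, so they are not independent of each other.

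**Figure D4:**
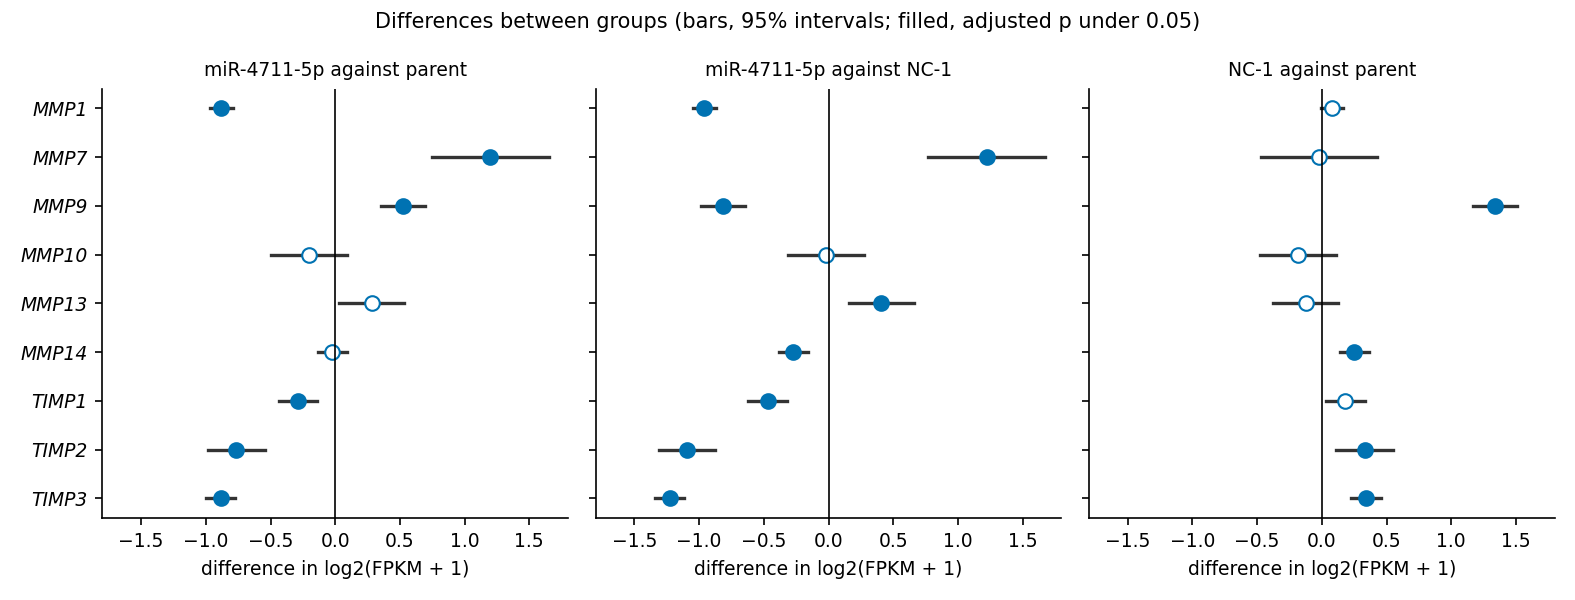
Differences between groups for the 9 genes tested. The x axis is the difference in log2(FPKM + 1), points are limma estimates from 2 libraries per group, bars are 95% intervals and filled points passed an adjusted p of 0.05; MMP1, TIMP1, TIMP2 and TIMP3 lie left of 0 in both comparisons of miR-4711-5p, MMP7 lies right of 0 in both, and MMP9 changes side with the control.

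MMP1 encodes interstitial collagenase, which cuts fibrillar collagens (chr11:102660132-102668891, minus strand). It was among the highest of the enzymes, at 316.8 and 316.4 FPKM in parent and 337 and 333 FPKM in NC-1, and at 169.9 and 173 FPKM with miR-4711-5p. Every control library lay well above both miR-4711-5p libraries. MMP1 fell 1.84-fold against parent (log2 difference −0.88, SE 0.04, limma adjusted p = 6.75e-06) and 1.95-fold against NC-1 (−0.96, SE 0.04, limma adjusted p = 6.98e-06). NC-1 differed from parent by 0.08 (limma adjusted p = 0.152).

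MMP13, another collagenase, was a low-level gene (chr11:102813724-102826461, minus strand). It had 2.72 and 3.04 FPKM in parent, 2.26 and 2.87 FPKM in NC-1, and 3.69 and 3.74 FPKM with miR-4711-5p. Both miR-4711-5p libraries were above all 4 control libraries. The 1.45-fold higher mean against NC-1 passed the threshold (log2 difference 0.41, SE 0.11, limma adjusted p = 0.0210), and the 1.29-fold higher mean against parent did not (0.28, 95% interval 0.03 to 0.53, limma adjusted p = 0.0699). The first call was lost without the first NC-1 library (adjusted p = 0.0924), without either miR-4711-5p library (0.0890 and 0.0976) and without the filter on low values (0.0591), and the second comparison passed without either NC-1 library (0.0419 and 0.0438) and with only its own 4 libraries (0.0413).

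MMP10, stromelysin-2, lay next to MMP1 on chromosome 11 (chr11:102641233-102651359, minus strand) and was close to the limit of the filter. It had 1.197 and 1.194 FPKM in parent, 0.874 and 0.991 FPKM in NC-1, and 0.825 and 0.992 FPKM with miR-4711-5p. The parent libraries were the highest, and the NC-1 and miR-4711-5p libraries overlapped. No comparison passed, with a log2 difference of −0.20 against parent (95% interval −0.50 to 0.09, limma adjusted p = 0.225) and −0.02 against NC-1 (−0.31 to 0.27, limma adjusted p = 0.919).

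MMP7 encodes matrilysin, a small metalloproteinase that epithelial cells secrete (chr11:102391239-102401481, minus strand). Its level was 2.23 and 3.75 FPKM in parent, 2.53 and 3.21 FPKM in NC-1, and 8.90 and 7.17 FPKM with miR-4711-5p. Both miR-4711-5p libraries were above all controls, and the parent and NC-1 libraries overlapped. MMP7 rose 2.69-fold against parent (log2 difference 1.199, SE 0.19, limma adjusted p = 0.00240) and 2.80-fold against NC-1 (1.22, SE 0.19, limma adjusted p = 0.00247). These were the largest increases among the 9 genes in both comparisons, from a low level and with the largest SE of the 9.

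Promoters were read for AP-1, a transcription factor of JUN and FOS proteins whose site is known in several MMP promoters. RefSeq promoters of 300 bases (250 before and 50 after the start, GRCh38.p14) were at hand for 5 of the 10 genes: MMP7, MMP10, MMP14, TIMP1 and TIMP3. The motif TGAGTCA or TGACTCA, which are reverse complements of each other, was present in MMP7 alone of these, beginning at base −67 from the start (chr11:102530808-102530814, minus strand). No promoter was at hand for MMP28, MMP1, MMP9, MMP13 and TIMP2, so the motif cannot be set beside direction of change in the set. The line shows the MMP7 motif in capitals.
MMP7 promoter: aaacactcaaaTGAGTCAcctatttccac
The same letters were in 4.95% of all 35116 promoters and in 3.70% of 13055 promoters of tested genes. Binding was not measured, and a part of the motif in the rise of MMP7 was not tested.

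MMP9 encodes gelatinase B, which cuts denatured collagen and type IV collagen of basement membranes (chr20:44637547-44645200, plus strand). It had 8.90 and 8.71 FPKM in parent, 24.9 and 22.8 FPKM in NC-1, and 13.9 and 12.3 FPKM with miR-4711-5p. The 3 groups did not overlap, with NC-1 highest and parent lowest. The direction of the miR-4711-5p comparison therefore turned with the control. MMP9 was 1.49-fold higher than in parent (log2 difference 0.52, SE 0.07, limma adjusted p = 0.00126) and 1.82-fold lower than in NC-1 (−0.82, SE 0.07, limma adjusted p = 0.000192). NC-1 was 2.71-fold above parent (1.34, SE 0.07, limma adjusted p = 0.000271), the largest difference between the controls among these genes.

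MMP14 encodes MT1-MMP, a membrane-anchored collagenase that also activates the MMP2 precursor together with TIMP2 (chr14:23305769-23318250, plus strand). Its libraries stood at 315.8 and 294 FPKM in parent, 370.3 and 356 FPKM in NC-1, and 301 and 299 FPKM with miR-4711-5p. The miR-4711-5p libraries lay inside the parent range and below both NC-1 libraries. Against parent the log2 difference was −0.02 (95% interval −0.13 to 0.09, limma adjusted p = 0.727). Against NC-1 MMP14 was 1.21-fold lower (−0.27, SE 0.05, limma adjusted p = 0.00381), and NC-1 was 1.19-fold above parent (0.25, limma adjusted p = 0.0102). The last call was lost without the first NC-1 library (adjusted p = 0.0525).

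All 3 inhibitor genes of the list fell with miR-4711-5p, and each was also higher in the NC-1 mean than in the parent mean. TIMP3, the inhibitor that stays bound to the matrix and also blocks several ADAM enzymes (chr22:33197691-33259028, plus strand), had 33.8 and 34.8 FPKM in parent, 44.8 and 42.7 FPKM in NC-1, and 18.0 and 18.2 FPKM with miR-4711-5p. The 3 groups were fully separate. TIMP3 fell 1.90-fold against parent (log2 difference −0.89, SE 0.05, limma adjusted p = 1.88e-05) and 2.42-fold against NC-1 (−1.23, SE 0.05, limma adjusted p = 7.26e-06). NC-1 was 1.28-fold above parent (0.34, limma adjusted p = 0.00390).

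TIMP2, the inhibitor that also takes part in activation of the MMP2 precursor (chr17:76849059-76921469, minus strand), had 22.8 and 21.4 FPKM in parent, 26.6 and 29.5 FPKM in NC-1, and 13.8 and 11.5 FPKM with miR-4711-5p. Every group was again separate. TIMP2 fell 1.75-fold against parent (log2 difference −0.76, SE 0.09, limma adjusted p = 0.000717) and 2.22-fold against NC-1 (−1.09, SE 0.09, limma adjusted p = 0.000165). NC-1 was 1.27-fold above parent (0.33, limma adjusted p = 0.0385), a call that was lost when any of the 4 libraries of these 2 groups was left out (adjusted p from 0.0684 to 0.163), without the variance trend (0.0644) and without the filter on low values (0.102).

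TIMP1, a secreted inhibitor of most metalloproteinases (chrX:47441807-47446188, plus strand), was the highest gene of the family in every group. It had 439 and 437 FPKM in parent, 468 and 529 FPKM in NC-1, and 348 and 369.7 FPKM with miR-4711-5p. Both miR-4711-5p libraries lay below all 4 control libraries. TIMP1 fell 1.22-fold against parent (log2 difference −0.29, SE 0.06, limma adjusted p = 0.00914) and 1.39-fold against NC-1 (−0.47, SE 0.06, limma adjusted p = 0.00121). The first of these calls was lost without the first parent library (adjusted p = 0.0527) or the first miR-4711-5p library (0.0708). NC-1 differed from parent by 0.18 (limma adjusted p = 0.0702), which passed without the first NC-1 library (0.0290).

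Several of these genes overlap others in the annotation, and how reads were assigned by strand is not given in the sources used here. SYN1 lies on the strand opposite to TIMP1 and did not exceed 0.330 FPKM. SYN3 lies opposite to TIMP3, at up to 0.0275 FPKM, and C17orf50 opposite to MMP28, at up to 0.931 FPKM. WTAPP1, opposite to MMP1 and MMP10, reached 0.197 FPKM, beside 0.825 to 1.197 FPKM for MMP10. CEP295NL, on the same strand as TIMP2, reached 0.0314 FPKM. Overlapping RNAs without a value in the tables were left out.

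Of the 17 other MMP and TIMP genes only MMP15 and MMP19 passed the filter. MMP15 encodes MT2-MMP, another membrane-type metalloproteinase. It had mean levels of 27.0 FPKM in parent, 24.4 FPKM in NC-1 and 30.1 FPKM with miR-4711-5p, and was higher than in NC-1 (log2 difference 0.29, limma adjusted p = 0.0117) but not called against parent (0.15, limma adjusted p = 0.111). MMP19 was not called in either (adjusted p = 0.467 and 0.0686).

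ADAM enzymes shed growth factors and receptors from the cell surface, and 7 of 14 ADAM genes passed the filter. Against parent 3 were higher and 1 lower, against NC-1 2 were higher and 4 lower, and in NC-1 against parent 6 were higher and 1 lower. Over all genes tested, 18.7% were called higher and 24.7% lower against parent, 18.4% and 21.2% against NC-1, and 12.1% and 15.1% between NC-1 and parent. The median log2 difference of the 7 genes was 0.15, −0.22 and 0.30 in that order, beside −0.01, 0.00 and −0.01 for all genes. ADAM15 was the ADAM gene that fell against both controls, from 131 ± 3.79 FPKM in parent and 112 ± 2.37 in NC-1 to 66.7 ± 1.32 with miR-4711-5p (SD, n = 2). Its log2 differences were −0.97 (limma adjusted p = 9.49e-06) and −0.74 (3.29e-05). ADAM19 had 1.26 and 1.001 FPKM in parent, 3.77 and 3.802 FPKM in NC-1, and 5.33 and 4.76 FPKM with miR-4711-5p. It was 4.45-fold above parent (1.503, limma adjusted p = 4.36e-05) and 1.33-fold above NC-1 (0.33, limma adjusted p = 0.0329), and NC-1 itself was 3.34-fold above parent. ADAM28 was higher than in parent by 0.65 (limma adjusted p = 0.00176) and than in NC-1 by 0.31 (limma adjusted p = 0.0394). Both calls against NC-1 were lost when any of the 4 libraries of that comparison was left out (adjusted p from 0.0689 to 0.185 for ADAM19 and from 0.0675 to 0.193 for ADAM28).

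ADAMTS enzymes are secreted proteases of the same superfamily, and 3 of 19 passed the filter. Of these, ADAMTS12 was lower against parent and against NC-1, and the other two were not called in either, where 24.7% and 21.2% of all genes were called lower. It had 12.6 FPKM in both parent libraries, 16.8 and 19.1 FPKM in NC-1, and 8.02 and 7.55 FPKM with miR-4711-5p. Its log2 differences were −0.63 (limma adjusted p = 0.000535) and −1.10 (4.53e-05), and NC-1 was above parent by 0.48 (limma adjusted p = 0.00489).

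Among activators, inhibitors and partners of metalloproteinases, 9 of 12 genes passed the filter. Against parent 1 was higher and 5 lower, against NC-1 1 was higher and 6 lower, and in NC-1 against parent 2 were higher and 1 lower. The shares of all genes called were 43.4%, 39.6% and 27.2% in the 3 comparisons, so the 3 of 9 called between NC-1 and parent were near the share of all genes. By direction, 18.7% of all genes were higher and 24.7% lower against parent. These shares were 18.4% and 21.2% against NC-1, and 12.1% and 15.1% between NC-1 and parent. The median log2 difference was −0.25, −0.33 and 0.13, beside −0.01, 0.00 and −0.01 for all genes. LRP1, the endocytic receptor that clears metalloproteinases and TIMPs, fell from 26.9 ± 0.184 FPKM in parent and 29.7 ± 0.143 in NC-1 to 11.6 ± 0.128 with miR-4711-5p (SD, n = 2). That was 2.33-fold and 2.57-fold lower (log2 differences −1.15 and −1.29, limma adjusted p = 5.88e-06 and 5.74e-06). PCSK7 and PCSK6, proprotein convertases, were lower by −0.91 and −0.57 against parent and by −0.79 and −0.70 against NC-1. LCN2, which encodes lipocalin-2, a partner that forms a complex with MMP9, was higher by 0.61 (limma adjusted p = 0.000911) and 0.64 (0.000832).

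Of 14 genes for basement membrane and other matrix proteins, 9 passed the filter. Against parent 3 were higher and 4 lower, against NC-1 1 was higher and 7 lower, and in NC-1 against parent 6 were higher and 0 lower, the same numbers by limma at an unadjusted p under 0.05. Of all genes 18.7% were higher and 24.7% lower against parent, 18.4% and 21.2% against NC-1, and 12.1% and 15.1% between NC-1 and parent. The median log2 difference of the 9 matrix genes was −0.01, −0.25 and 0.21, beside −0.01, 0.00 and −0.01 for all genes. FN1, fibronectin, rose from 3.65 ± 0.363 FPKM in parent and 3.47 ± 0.276 in NC-1 to 5.82 ± 0.623 with miR-4711-5p (SD, n = 2). Its log2 differences were 0.55 (limma adjusted p = 0.00435) and 0.61 (0.00320). HSPG2 (perlecan) and the laminin chains LAMA5 and LAMC1 were lower against both controls, by −0.21, −0.27 and −0.14 against parent and by −0.42, −0.36 and −0.33 against NC-1. The LAMC1 difference against parent (limma adjusted p = 0.0459) was lost when any of the 4 libraries of that comparison was left out (0.105 to 0.191), and that of HSPG2 (0.0152) without the first parent library (0.0717) or the second miR-4711-5p library (0.0967).

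**Figure D5:**
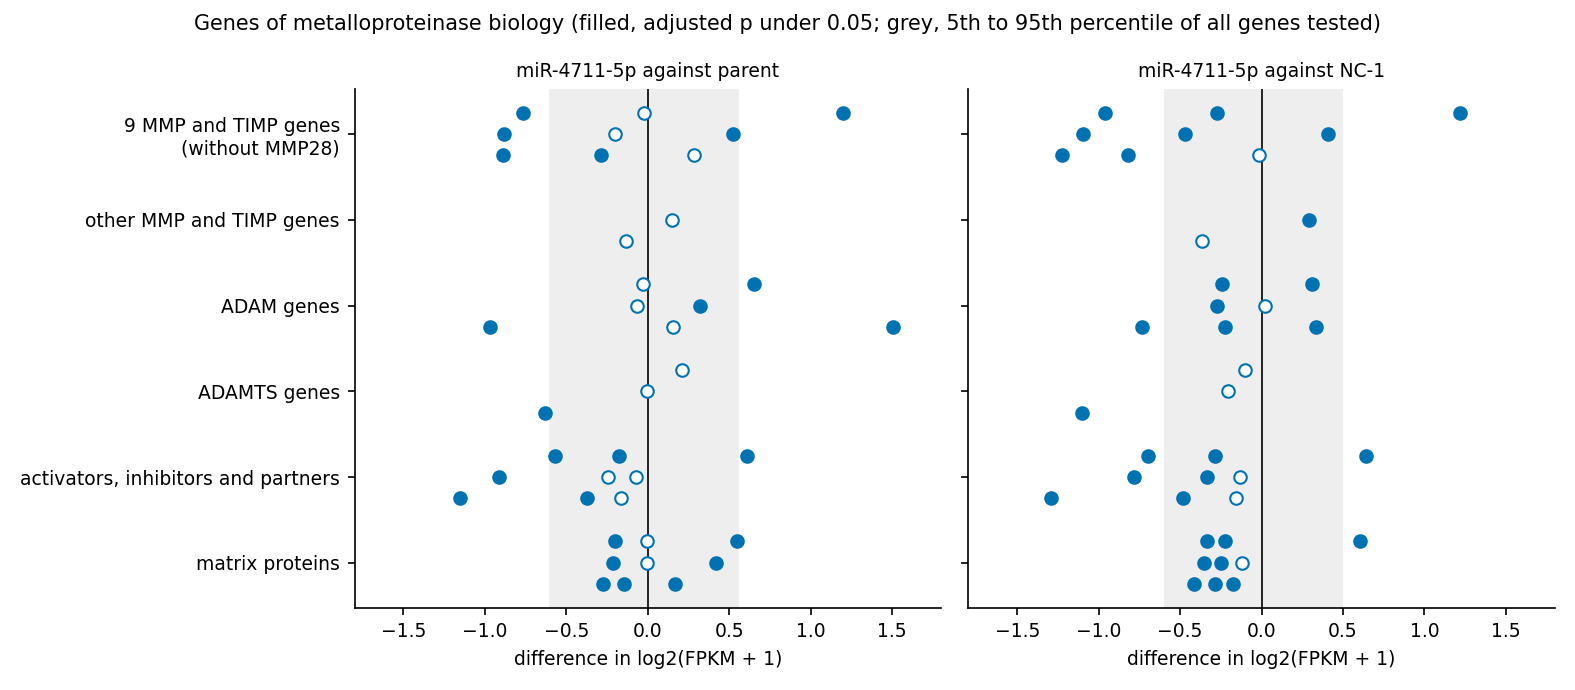
Differences for genes of metalloproteinase biology, by list. The x axis is the difference in log2(FPKM + 1), each point is 1 gene that passed the filter, filled points passed an adjusted p of 0.05 and grey spans the 5th to 95th percentile of all 12040 genes; LRP1, ADAM15, PCSK7 and ADAMTS12 lie below the grey span in both panels, with 3 points of the upper row (MMP1, TIMP2 and TIMP3), and MMP7 and LCN2 lie above it in both.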

How the data were processed

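RNA of BxPC-3 cells was measured in 6 libraries made with a stranded mRNA kit, 2 each of parent, NC-1 and miR-4711-5p. The submitters' processing notes name TopHat2 2.1.1, Bowtie2 2.3.5.1, SAMtools 1.2, Cufflinks 2.2.1, Cuffdiff and the hg19 build. The methods state that Cuffnorm gave the values. The deposited values are FPKM for each gene symbol, scaled by the authors for transcript length and library size. The annotation, strand option and library normalization option are not given in the sources used here. Count models do not suit FPKM and were not used.

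The 12040 genes that averaged at least 1 FPKM were tested on log2(FPKM + 1), a pseudocount of 1, with limma 3.58.1 in R 4.3.3 (lmFit, contrasts.fit, eBayes with trend). All 3 groups entered 1 fit with 3 residual and 4.15 prior degrees of freedom. Tests were two-sided with Benjamini-Hochberg adjustment over all genes at 0.05. An exact permutation test of 2 against 2 libraries cannot go below p = 0.333. Simulated data were used to test the limma fit. Groups came from the labels. The 10 genes, the gene lists and the tests were chosen with earlier results of these data known. All genes of the set are named, and from each other list up to 4 that passed against both controls in the same direction, in order of the difference against NC-1, together with the 5 genes most like MMP28. The rule also let any other measured MMP gene be named with its level. The 3′ UTRs were matched to genes by current and older symbols, and coding sequences and promoters by the same symbol only. Relative depth came from genes under 0.1 FPKM, of which 29.0% to 36.8% lay on the ratio used. Python 3.11.15, numpy 2.4.6, pandas 2.3.3 and matplotlib 3.10.9 were used. Alternatives were another pseudocount, other filters, median-of-ratios rescaling, no variance trend, only the libraries compared, a replicate block and each library left out.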

Additional observations from a re-analysis of the deposited data

How the results depend on the processing

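Each result was recomputed with a pseudocount of 0.1, no filter, a filter of 5 FPKM, median-of-ratios rescaling, no variance trend, only the 4 libraries compared, a replicate block, and each library left out. Of the 78 counts of called genes recomputed, 75 stayed within 1.5 times the value given. The exceptions were the 18 calls over the 5 other gene lists between NC-1 and parent, which ranged from 6 (without the first NC-1 library) to 13 when a library was left out, with 8 and 11 without the first and second parent library. A lone library left in a group was assumed to vary like the others. A count can stay within 1.5 times its value while the genes called change, as with single calls given above as lost or gained. Over all genes, the 3279 calls between NC-1 and parent became 2165 without the filter and 1457 without the first parent library, 1680 without the first NC-1 library and 2133 without the second. The 5230 calls against parent became 3246 without the first miR-4711-5p library, and the 4763 against NC-1 became 2887 and 3017 without the first and second. Direction turned only for differences that had not passed. MMP14 against parent became 0.0011 after rescaling and ranged from −0.0737 to 0.0286 when a library was left out, and MMP10 against NC-1 from −0.0816 to 0.0441. Between NC-1 and parent the ranges were −0.301 to 0.256 for MMP7, −0.123 to 0.0640 for LCN2 and −0.135 to 0.0242 for FN1. The MMP28 differences against the controls lay between −1.90 and −2.12 when a library was left out. The cause of these shifts was not tested. Libraries with the same replicate number showed no strong shared shift (correlations of replicate differences across genes 0.061, 0.003 and −0.009). These values cannot settle whether the libraries were paired, and the labels do not say. With the replicate block the calls among the 9 genes were 6, 8 and 3, the TIMP2 call between NC-1 and parent being lost (adjusted p = 0.0528), and 18, 22 and 17 in the other lists. MMP10, MMP13 and MMP7 lay at few FPKM, where the unknown number of reads limits precision.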
